A study of Mus musculus with 35 samples.

Results

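The 36 genes described here carry fatty acids through a muscle fibre: their release from circulating lipoproteins and entry into the cell, activation and thioester cleavage, storage in and release from lipid droplets, the carnitine shuttle into mitochondria, beta-oxidation with its electron transfer, and the uncoupling and fuel-choice proteins around it. A gene was taken as measured where a row of the deposited table carried exactly its symbol, and of several rows the one with the highest mean, taken over the 35 arrays, was kept. By that rule 33 of the 36 genes were measured, among 19938 genes tested in all. Fabp3 and Hadhb had 2 such rows each. With the mean of a gene's rows instead, the Mstn-null count of 27 given below was the same. Acsl1 and Ucp2 had no row of their own symbol and were not analysed here, and Cpt1b, the muscle form of the outer carnitine palmitoyltransferase, lay on a row shared with another gene's symbol and was not used. No filter on dim genes was applied, so the 33 genes are all measured members.

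The samples were quadriceps muscles of female mice aged 2 months, each measured on its own Affymetrix array. There were 4 classes: control mice, Mstn-null mice, which lack myostatin, and mice that got either 1 dose or 4 doses of the protein ActRIIB-Fc, a decoy made of the soluble ligand-binding part of the activin type IIB receptor, which captures myostatin and its relatives. Experiment 1 had 3 mice in each class, and experiment 2, an independent repeat, had 5 control mice, 5 mice at each dosing and 8 Mstn-null mice. The strain, the amount and spacing of the doses and what control mice received are not given in the sources used here. The labels call the samples of a class biological replicates.

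Skeletal muscle burns fatty acids taken from plasma triglyceride, which lipoprotein lipase cleaves at the capillary wall, or from its own lipid droplets. Fatty acids are bound in the cytosol, joined to coenzyme A, passed as carnitine esters across the inner mitochondrial membrane and shortened by repeated cycles of dehydrogenation, hydration, a second dehydrogenation and thiolysis. Slow and oxidative fast fibres hold more of this machinery than glycolytic fibres, and nuclear receptors of the PPAR and estrogen-related receptor families drive much of its transcription.

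Values are deposited log2 expression levels, so a difference of 1 is a doubling. Array medians ran from 4.39 to 4.52 in experiment 1 but from 6.06 to 6.27 in experiment 2, and for that reason no level is set across experiments. The Mstn row itself was lower in the Mstn-null class of both experiments, averaging 7.25 ± 0.49 (SD, n = 8) against 10.03 ± 0.16 for the 5 controls of experiment 2, and 6.14 ± 0.48 against 7.35 ± 0.50 (SD, n = 3 each) in experiment 1. The mean of 12 fast fibre markers exceeded the array median on every array, at 11.20 to 11.41 in experiment 1 and 12.84 to 13.38 in experiment 2. Arrays differed in the spread of their values: the interquartile range over genes was 2.47 to 2.74 on controls and 2.39 to 2.44 on Mstn-null arrays of experiment 1, and 2.50 to 2.65 against 2.14 to 2.42 in experiment 2. Of the 6 arrays under 2.3, 4 were Mstn-null arrays of experiment 2 (replicates 2, 6, 7 and 8) and 2 were 4-dose arrays (replicate 3 of each experiment). Control replicate 2 of experiment 1 stood apart from the other controls of that experiment in slow fibre markers, at a mean of 7.38 against 8.49 and 8.86, and was low for several of the genes below. The main counts, and calls that were lost without the narrow arrays, are given with and without them.

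In Mstn-null muscle, expression of the fatty acid pathway was lower along nearly its whole length. Over both experiments 27 of the 33 genes fell and 0 rose (limma, Benjamini-Hochberg adjusted p under 0.05 over 19938 genes), where 16.4% of all genes tested fell. The median change of the 33 was -0.70, beside 0.09 over all genes. All 12 beta-oxidation genes, all 3 electron transfer flavoprotein genes, both measured genes of the carnitine shuttle step and both Ucp3 and Pdk4 fell, while 4 of 7 uptake genes, 2 of 3 thioesterases and 2 of 4 storage and lipolysis genes did. The 6 that did not pass were Angptl4, Vldlr, Slc27a4, Acot1, Lipe and Plin2, with changes from -0.17 to 0.15. As these are whole muscles, fewer cells of a type and less RNA per cell cannot be told apart.

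**Figure D1:**
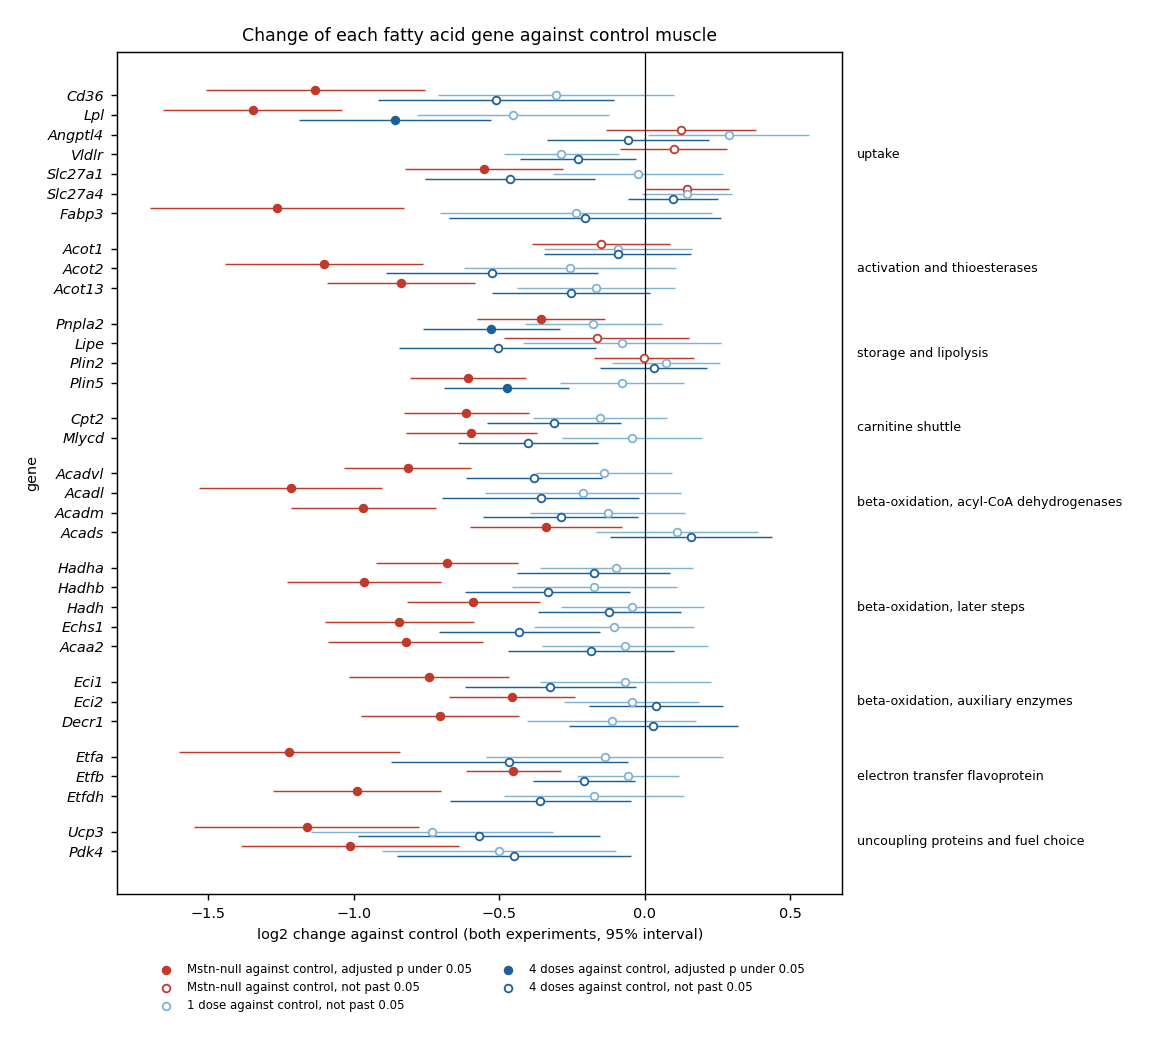
Log2 change against control (horizontal axis, 95% interval as the line) of each of the 33 measured genes, ordered by step, over both experiments. Filled points passed adjusted p under 0.05. Mstn-null points lie left of 0 for 30 of the 33 genes, with 27 filled. Among the 4-dose points Lpl, Pnpla2 and Plin5 are filled, and no 1-dose point is.

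Uptake was led by Lpl, which encodes lipoprotein lipase and lies at chr8:68880555-68906932 (GRCm38). In experiment 1 Lpl stood at 9.67, 8.80 and 9.67 in controls, 7.86, 8.50 and 8.28 in Mstn-null mice, 9.25, 9.05 and 9.00 after 1 dose and 8.50, 9.00 and 8.34 after 4 doses. In experiment 2 the controls stood at 11.36, 11.10, 11.48, 11.69 and 11.44, the 1-dose arrays at 11.13, 10.64, 11.04, 10.61 and 10.87, the 4-dose arrays at 10.51, 10.52, 10.09, 10.74 and 10.65, and the 8 Mstn-null arrays between 9.13 and 10.61 with a median of 10.03. Every Mstn-null array was thus below every control array in both experiments, every 4-dose array was below every control in experiment 2, and the 1-dose arrays overlapped the controls. Lpl fell by 1.35 ± 0.15 (SE) in Mstn-null muscle, 2.54-fold lower (limma, adjusted p = 1.99e-07).

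Cd36, the fatty acid translocase at the cell surface (chr5:17781690-17888959), fell by 1.13 ± 0.19 (SE; limma, adjusted p = 3.37e-05). In experiment 2 it was 11.69, 11.71, 11.84, 12.19 and 12.03 in controls and 9.38 to 11.49, median 10.57, in Mstn-null mice, so these groups did not overlap. The 1-dose values of 11.48, 11.36, 11.68, 11.16 and 11.24 and the 4-dose values of 11.31, 11.33, 11.14, 11.42 and 11.68 also lay below all 5 controls. The highest of each, 11.679 and 11.685, nearly touched the lowest control at 11.686. In experiment 1 controls at 9.10, 8.13 and 9.30 overlapped the Mstn-null values of 8.34, 8.37 and 8.05, the 1-dose values of 8.94, 8.75 and 8.93 and the 4-dose values of 8.37, 8.93 and 7.71, the low control being replicate 2.

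Fabp3, the heart-type fatty acid-binding protein of the cytosol, fell by 1.26 ± 0.21 (SE; limma, adjusted p = 5.07e-05) and showed the same contrast between experiments. Its Mstn-null mean was 10.29 ± 0.69 (SD, n = 8) against 11.94 ± 0.08 (SD, n = 5) in experiment 2, but 8.90 ± 0.20 against 9.37 ± 0.88 (SD, n = 3 each) in experiment 1, where control replicate 2 read 8.36. Slc27a1, a fatty acid transport protein, fell by 0.55 (adjusted p = 0.00184). Slc27a4, its relative, changed by -0.17 in experiment 1 (adjusted p = 0.458) and rose by 0.29 in experiment 2 (limma, adjusted p = 0.00286). The difference between both experiments had an adjusted p of 0.0553.

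Neither Angptl4, a secreted inhibitor of lipoprotein lipase, nor Vldlr, a lipoprotein receptor, passed in Mstn-null muscle. Angptl4 was 5.76, 5.11 and 5.36 in controls, 5.07, 5.62 and 5.34 in Mstn-null mice, 5.20, 5.89 and 5.31 after 1 dose and 5.06, 5.45 and 5.20 after 4 doses in experiment 1. The experiment 2 values were 6.81, 6.61, 6.96, 7.10 and 6.64 in controls, 6.67 to 7.36 (median 7.05) in Mstn-null mice, 7.67, 6.66, 7.39, 6.92 and 7.62 after 1 dose and 6.58, 7.22, 6.84, 6.65 and 6.89 after 4 doses. All 4 classes overlapped in both experiments, and the Mstn-null change was 0.12 with a 95% interval from -0.13 to 0.38.

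Of the thioesterases, which split acyl-CoA back into free acid and coenzyme A, the mitochondrial Acot2 fell to a level 2.15-fold lower (adjusted p = 1.2e-05) and Acot13 by 0.84 (limma, adjusted p = 9.32e-06). Acot13 was 7.68, 7.86 and 7.79 in controls, 7.25, 7.21 and 7.50 in Mstn-null mice, 7.70, 7.61 and 7.61 after 1 dose and 7.54, 7.66 and 7.12 after 4 doses of experiment 1. Experiment 2 gave 9.61, 9.63, 9.65, 9.80 and 9.63 in controls, 8.12 to 9.46 (median 8.56) in Mstn-null mice, 9.43, 9.45, 9.63, 9.47 and 9.40 after 1 dose and 9.63, 9.45, 9.28, 9.43 and 9.52 after 4 doses. Mstn-null and control arrays did not overlap in either experiment. The cytosolic Acot1, a close copy of Acot2 that lies 15624 bases from it on the same chromosome, changed by -0.15 (adjusted p = 0.294), and near-identical copies can share probe signal.

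The storage and lipolysis genes divided. Plin5, the lipid droplet coat protein of oxidative tissues that sits between droplets and mitochondria, fell by 0.61 ± 0.10 (SE; limma, adjusted p = 2.64e-05), and Pnpla2, adipose triglyceride lipase, which starts droplet lipolysis, fell by 0.36 ± 0.11 (adjusted p = 0.00927). The Pnpla2 call was lost without the 6 narrow arrays (-0.26, limma adjusted p = 0.0993) and with quantile normalization (-0.13, adjusted p = 0.411). Lipe, hormone-sensitive lipase, changed by -0.17 (adjusted p = 0.39). Plin2, the general droplet coat protein, had a change whose 95% interval ran from -0.17 to 0.17.

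Plin5 (chr17:56111597-56117606) was 6.33, 6.10 and 6.35 in controls, 5.88, 5.80 and 5.84 in Mstn-null mice, 6.13, 6.15 and 6.31 after 1 dose and 5.77, 5.71 and 5.81 after 4 doses of experiment 1. In the second experiment it was 7.45, 7.36, 7.87, 7.75 and 7.52 in controls, 6.47 to 7.20 (median 6.90) in Mstn-null mice, 7.46, 7.02, 7.88, 7.50 and 7.65 after 1 dose and 6.78, 7.13, 7.22, 7.05 and 7.44 after 4 doses. Mstn-null arrays were below all controls in both experiments, 4-dose arrays in experiment 1 only, and 1-dose arrays overlapped controls in both. Plin2 was 7.35, 6.93 and 7.10 in controls, 7.40, 7.27 and 7.06 in Mstn-null mice, 7.12, 7.63 and 7.04 after 1 dose and 7.16, 7.20 and 7.09 after 4 doses of experiment 1. The experiment 2 values of Plin2 were 8.47, 8.83, 8.55, 8.63 and 8.49 in controls, 8.16 to 8.81 (median 8.58) in Mstn-null mice, 8.72, 8.75, 8.67, 8.51 and 8.50 after 1 dose and 8.60, 8.76, 8.36, 8.71 and 8.73 after 4 doses, with all classes overlapping.

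**Figure D2:**
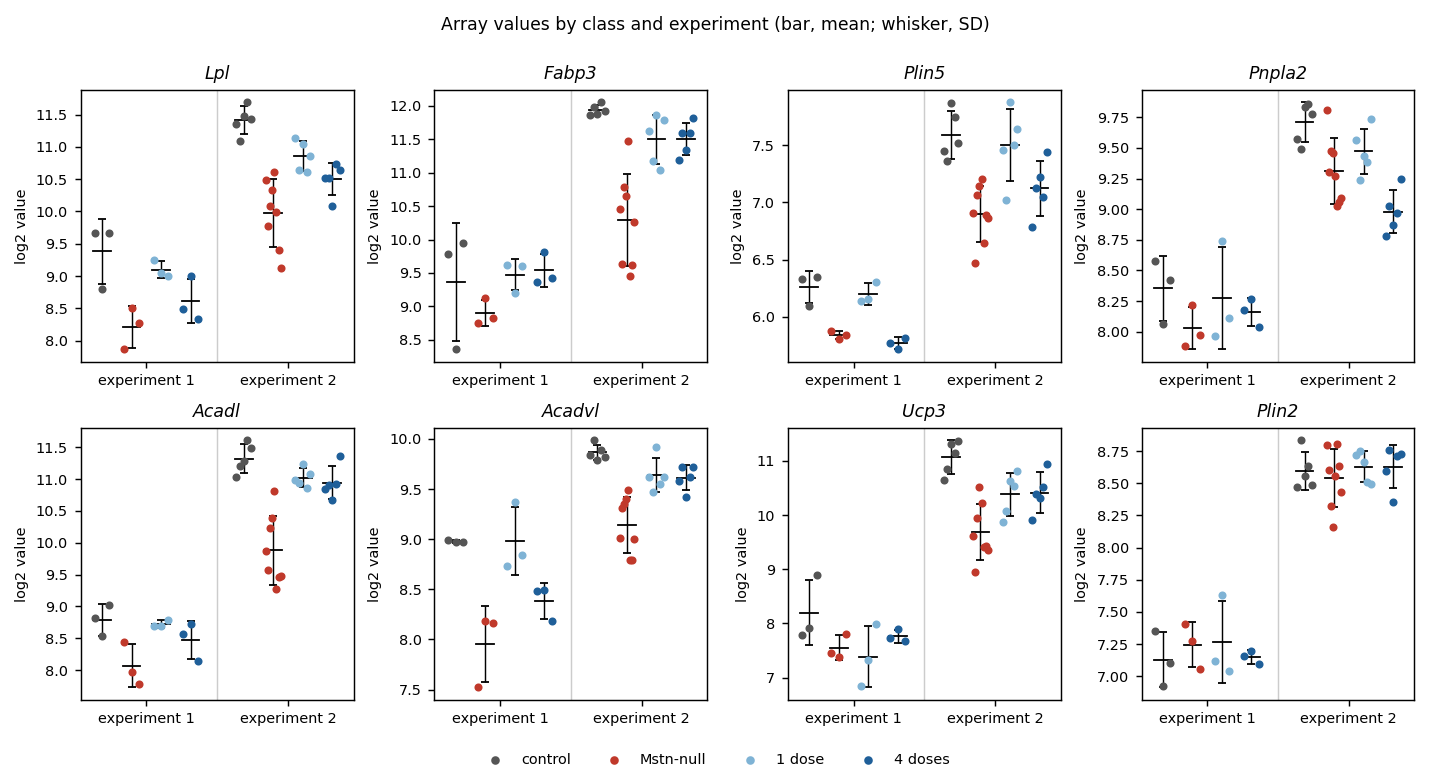
Log2 value on each array (vertical axis) of 8 genes in the 4 classes of each experiment; each point is 1 mouse, the bar the mean and the whisker the SD. Lpl, Plin5, Acadl and Acadvl show every Mstn-null point under every control point in both experiments, and Plin2 shows all classes overlapping.

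At the carnitine shuttle step, Cpt2, the inner-membrane carnitine palmitoyltransferase, fell by 0.61 (adjusted p = 5.88e-05) and Mlycd, which degrades the malonyl-CoA that blocks the shuttle, fell by 0.60 (limma, adjusted p = 0.000134). In experiment 1 Cpt2 was 7.46, 7.26 and 7.35 in controls, 6.77, 6.69 and 6.81 in Mstn-null mice, 7.22, 7.37 and 7.09 after 1 dose and 7.02, 7.13 and 6.71 after 4 doses. For experiment 2 the values were 8.87, 9.05, 9.14, 9.14 and 9.01 in controls, 7.66 to 8.94 (median 8.50) in Mstn-null mice, 9.02, 8.65, 8.88, 8.85 and 8.97 after 1 dose and 8.85, 8.81, 8.56, 8.90 and 8.81 after 4 doses. The Mstn-null group was below controls throughout experiment 1 but overlapped them in experiment 2, where its 8 values spread by an SD of 0.43 against 0.11 in controls.

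Within beta-oxidation, the first dehydrogenation is shared by acyl-CoA dehydrogenases of falling chain length preference. The long-chain Acadl fell by 1.22 ± 0.16 (SE), 2.32-fold lower (limma, adjusted p = 1.08e-06), the medium-chain Acadm by 0.97 (adjusted p = 1.01e-06), the very-long-chain Acadvl by 0.81 (adjusted p = 1.79e-06) and the short-chain Acads by 0.34 (adjusted p = 0.033). The Acads call was the least firm: it was lost when any of 7 single arrays was left out (control replicates 1 and 3 and Mstn-null replicate 1 of experiment 1, control replicates 1 and 2 and Mstn-null replicates 6 and 8 of experiment 2), with the highest adjusted p at 0.0773. Without the 6 narrow arrays Acads was at -0.23 (limma, adjusted p = 0.195). Each of the other 26 calls held without any single array, and with quantile normalization Acads and Pnpla2 were lost while Acot1 passed as lower and Vldlr as higher.

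Acadm (chr3:153922353-153944643) was 9.57, 9.22 and 9.55 in controls, 8.84, 8.70 and 8.64 in Mstn-null mice, 9.62, 9.39 and 9.55 after 1 dose and 9.15, 9.36 and 8.87 after 4 doses of experiment 1. Its experiment 2 values were 11.53, 11.64, 11.64, 11.76 and 11.70 in controls, 9.98 to 11.37 (median 10.55) in Mstn-null mice, 11.38, 11.44, 11.57, 11.44 and 11.21 after 1 dose and 11.30, 11.44, 11.27, 11.34 and 11.56 after 4 doses. Mstn-null and control arrays did not overlap in either experiment, whereas both dosed classes overlapped controls in both.

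The later steps fell together: Hadha and Hadhb, the subunits of the mitochondrial trifunctional protein for long chains, by 0.68 and 0.96, Echs1, the short-chain enoyl-CoA hydratase, by 0.84, Hadh, the short-chain hydroxyacyl-CoA dehydrogenase, by 0.59 and the thiolase gene Acaa2 by 0.82 (limma, adjusted p from 2.53e-06 for Hadhb to 0.000182 for Hadh). Hadhb was 9.26, 8.58 and 9.37 in controls, 7.95, 8.27 and 8.30 in Mstn-null mice, 9.20, 8.71 and 9.01 after 1 dose and 8.72, 8.76 and 8.15 after 4 doses of experiment 1. In experiment 2 it was 11.86, 11.95, 12.04, 12.08 and 12.08 in controls, 10.44 to 11.75 (median 10.95) in Mstn-null mice, 11.68, 11.85, 11.98, 11.80 and 11.61 after 1 dose and 11.71, 11.79, 11.53, 11.88 and 12.02 after 4 doses. Again Mstn-null arrays stood wholly below controls and dosed arrays overlapped them.

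Hadha and Hadhb, which fell together, lie head to head on chromosome 5, with RefSeq start sites (GRCm38.p6) at 30154980 on the minus strand and 30155253 on the plus strand, 273 bases apart. The 250 bases before each start overlap by 228. The Hadhb row used was the brighter of 2, and its row number lies between those of members on chromosomes 2 and 3. Which locus its probes read was not tested. The sequence before Hadhb is shown, most of which also lies before Hadha (chr5:30155003-30155252, plus strand), and that before Acadm (chr3:153944644-153944893, minus strand) because it held the single match to AAGGTCA among the windows of these genes, with capitals marking GGGCGG in the first and the reverse complement of AAGGTCA in the second. Of the 2 GGGCGG marked, the one nearer the Hadhb start runs past the end of the Hadha window, which holds 1.
Hadhb: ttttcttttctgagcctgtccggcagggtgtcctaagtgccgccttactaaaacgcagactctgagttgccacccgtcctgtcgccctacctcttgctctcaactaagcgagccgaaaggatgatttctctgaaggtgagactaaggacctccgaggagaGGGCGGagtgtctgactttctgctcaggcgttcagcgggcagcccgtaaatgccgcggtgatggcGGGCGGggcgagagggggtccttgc
Acadm: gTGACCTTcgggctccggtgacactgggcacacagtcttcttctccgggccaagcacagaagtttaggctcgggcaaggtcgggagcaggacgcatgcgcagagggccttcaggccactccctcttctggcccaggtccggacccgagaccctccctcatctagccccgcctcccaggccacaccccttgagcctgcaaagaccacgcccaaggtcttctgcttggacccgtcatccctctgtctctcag
RefSeq windows of 250 bases before a start were at hand for 28 of the 33 measured genes, 33 windows in all. On both strands, GGGCGG, the letters of a GC box, was in 19 of the 33 windows (57.6%) and in 32.7% of all 32851 windows, and CCAAT was in 15 (45.5%) against 33.8%. AAGGTCA, a nuclear receptor half-site, was in 1 of 33 against 4.08%. Its extended form TCAAGGTCA, which contains it, and the direct repeat of AGGTCA that PPAR binds, spaced by 1 base, were in 0, against 0.387% and 0.0335%. These are descriptions of letters in short windows.

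The auxiliary enzymes for unsaturated fatty acids fell as well, Eci1 by 0.74, Decr1 by 0.70 and Eci2 by 0.46 (limma, adjusted p = 0.000109, 0.000172 and 0.00127). Eci1 was 8.62, 8.36 and 8.51 in controls, 7.58, 8.05 and 7.92 in Mstn-null mice, 8.50, 8.45 and 8.33 after 1 dose and 8.29, 8.11 and 7.76 after 4 doses of experiment 1. The experiment 2 values were 9.36, 9.53, 9.52, 9.63 and 9.26 in controls, 7.70 to 9.49 (median 8.80) in Mstn-null mice, 9.35, 9.33, 9.51, 9.56 and 9.20 after 1 dose and 9.23, 9.28, 9.00, 9.13 and 9.39 after 4 doses. The Mstn-null values overlapped controls in experiment 2 and not in experiment 1.

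Electron transfer flavoprotein hands the electrons of the first dehydrogenation to the respiratory chain. Its subunit genes Etfa and Etfb fell by 1.22 and 0.45, and Etfdh, the dehydrogenase that receives its electrons, fell by 0.99 (limma, adjusted p = 1.32e-05, 8.67e-05 and 6.47e-06). Etfdh was 8.93, 8.25 and 8.89 in controls, 8.26, 8.10 and 7.94 in Mstn-null mice, 8.87, 8.59 and 8.82 after 1 dose and 8.39, 8.50 and 7.81 after 4 doses of experiment 1. In experiment 2 the gene was at 11.14, 11.22, 11.23, 11.42 and 11.31 in controls, 9.49 to 10.90 (median 9.98) in Mstn-null mice, 10.95, 10.99, 11.21, 10.85 and 10.71 after 1 dose and 10.99, 10.96, 10.71, 10.93 and 11.24 after 4 doses. Mstn-null and control arrays were separate in experiment 2 and met in experiment 1 through control replicate 2.

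Ucp3, the muscle uncoupling protein, fell by 1.16 ± 0.19 (SE; limma, adjusted p = 3.37e-05). In experiment 1 Ucp3 was 7.78, 7.92 and 8.90 in controls, 7.46, 7.38 and 7.81 in Mstn-null mice, 6.85, 7.33 and 7.98 after 1 dose and 7.73, 7.90 and 7.67 after 4 doses. Experiment 2 gave 10.65, 10.85, 11.32, 11.14 and 11.37 in controls, 8.95 to 10.52 (median 9.53) in Mstn-null mice, 9.87, 10.07, 10.63, 10.54 and 10.82 after 1 dose and 9.90, 10.39, 10.32, 10.52 and 10.95 after 4 doses. All classes overlapped in experiment 1, and in experiment 2 the Mstn-null arrays alone were clear of the controls.

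Pdk4, the kinase that turns off pyruvate dehydrogenase and so spares glucose, fell to a level 2.02-fold lower (limma, adjusted p = 0.000105). Its experiment 1 values were 9.69, 9.22 and 10.40 in controls, 9.14, 9.12 and 9.02 in Mstn-null mice, 9.28, 8.65 and 9.75 after 1 dose and 9.77, 9.92 and 9.79 after 4 doses. In experiment 2 they were 12.97, 12.95, 13.34, 13.20 and 13.35 in controls, 11.23 to 12.77 (median 11.87) in Mstn-null mice, 12.62, 12.44, 12.82, 12.50 and 13.05 after 1 dose and 11.72, 12.60, 12.45, 12.40 and 12.88 after 4 doses. Mstn-null arrays were below all controls in both experiments, and 4-dose arrays were in experiment 2 but not in experiment 1.

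Within single experiments, 26 genes fell and 1 rose (Slc27a4) in Mstn-null muscle of experiment 2, where 16.7% of all genes fell and 28.9% rose, and 8 fell in experiment 1 (Lpl, Mlycd, Acadvl, Acadm, Hadhb, Echs1, Etfa and Etfb), where 2.7% of all genes fell. The count in experiment 1 moved with single arrays: it was 2, 4 and 1 without control replicates 1, 2 and 3, and 1 without Mstn-null replicate 1. Every Mstn-null array was below every control array for 20 genes in experiment 1 and 17 in experiment 2, beside 13.9% and 5.52% of all genes. Wholly above controls was 1 gene in each, Vldlr and then Slc27a4, beside 11.6% and 8.24% of all genes. None of 99 tests of a gene's change between experiments passed by limma at adjusted p under 0.05. Of all genes 1.68% passed for Mstn-null, 0% for 1 dose and 0.00502% for 4 doses. At unadjusted p under 0.05 there were 6 of 33, 0 and 4 in the same order. The share of all genes at that looser threshold was not counted.

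After 1 dose of ActRIIB-Fc no gene of the pathway passed the test. Of the 33 genes 0 were called by limma, where 0.572% of all genes fell and 0.542% rose. The median change was -0.11 beside 0.02 over all genes. At unadjusted p under 0.05 there were 5, and the share of all genes at that threshold was not counted. The largest decrease was Ucp3 at -0.73 (95% interval -1.15 to -0.32, adjusted p = 0.0723) and the largest increase Angptl4 at 0.29 (0.01 to 0.57, adjusted p = 0.395). Lpl was at -0.45, Pdk4 at -0.50 and Vldlr at -0.29 (adjusted p = 0.215, 0.275 and 0.181). For the 12 beta-oxidation genes the 95% intervals reached no lower than -0.55 (Acadl) and no higher than 0.39 (Acads). By single experiment limma called 0 genes in either, beside 0.0502% and 1.63% of all genes called in either direction. At unadjusted p under 0.05 there were 1 and 6. Cd36, Vldlr and Fabp3 lay wholly below controls in experiment 2 and 0 genes did in experiment 1, beside 2.94% and 4.47% of all genes. Of these, Cd36 and Fabp3 nearly touched the lowest control. Wholly above were 0 genes in either (4.71% and 4.17% of all genes in experiments 1 and 2). With the 6 arrays of narrow spread left out, Lpl, Vldlr and Ucp3 were called lower, and 1 gene was called without control replicate 1 or 2 of experiment 1 or without 1-dose replicate 5 of experiment 2.

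After 4 doses, a capillary lipase, the droplet lipase and a droplet coat protein fell: Lpl by 0.86 ± 0.16 (SE), 1.81-fold lower, Pnpla2 by 0.53 ± 0.12, 1.44-fold lower, and Plin5 by 0.47 ± 0.11, 1.39-fold lower (limma, adjusted p = 0.00115, 0.00515 and 0.00541). These were 3 of 33 genes with 0 higher, where 1.23% of all genes fell and 1.91% rose. At unadjusted p under 0.05 by limma there were 21, a threshold at which the share of all genes was not counted. The median of the 33 was -0.32 beside 0.02 over all genes. The calls of these genes held without any single array, with highest adjusted p of 0.00382, 0.0162 and 0.0204, and also without the 6 arrays of narrow spread. The count was 6 without control replicate 2 of experiment 1 and 5 without 4-dose replicate 5 of experiment 2.

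Pnpla2 (chr7:141455188-141460743) is described in full because it was called, a choice made after its values were seen. In the second experiment it was 9.58, 9.49, 9.83, 9.86 and 9.78 in controls, 9.56, 9.24, 9.44, 9.39 and 9.73 after 1 dose, 8.78, 9.03, 8.87, 8.97 and 9.25 after 4 doses and 9.02 to 9.81 (median 9.29) in Mstn-null mice. The 4-dose arrays were below every control and overlapped the Mstn-null arrays. In experiment 1 controls at 8.58, 8.06 and 8.42 overlapped 4-dose arrays at 8.18, 8.27 and 8.04, Mstn-null arrays at 7.89, 8.22 and 7.98 and 1-dose arrays at 7.96, 8.74 and 8.11. Within experiment 2 the 4-dose change was -0.73 (limma, adjusted p = 0.00139), and within experiment 1 it was -0.19 (adjusted p = 0.805).

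No beta-oxidation gene passed after 4 doses: 0 of 12 were called by limma, where 1.23% of all genes fell and 1.91% rose. With so few genes called in all, 0 of 12 does not set this step apart. The median change of the 12 was -0.24, and 6 were at unadjusted p under 0.05. Closest were Acadvl at -0.38 (adjusted p = 0.0633) and Echs1 at -0.43 (adjusted p = 0.0778), and Mlycd of the shuttle was at -0.40 (adjusted p = 0.0547). The largest increase was Acads at 0.16 (95% interval -0.12 to 0.44, adjusted p = 0.647). In experiment 2 Acads was 8.58, 8.59, 8.56, 8.28 and 8.28 in controls, 8.76, 8.94, 8.78, 8.65 and 8.61 after 4 doses, 8.80, 8.34, 8.90, 8.75 and 8.62 after 1 dose and 7.52 to 8.75 (median 8.36) in Mstn-null mice. Experiment 1 gave 7.87, 7.58 and 7.67 in controls, 7.74, 7.72 and 7.48 after 4 doses, 7.48, 7.81 and 7.59 after 1 dose and 6.39, 7.37 and 7.37 in Mstn-null mice. The 4-dose arrays were thus above every control in experiment 2 and among them in experiment 1.

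By single experiment, 4 doses gave 4 lower genes in experiment 2 (Lpl, Vldlr, Pnpla2 and Plin5), where 0.978% of all genes fell, and 0 in experiment 1 by limma (8 at unadjusted p under 0.05), where 0.471% of all genes were called in either direction. The experiment 2 count was 2 without control replicate 1, 3, 4 or 5 or without 4-dose replicate 2, 3 or 4. Vldlr differed in sign between experiments: in experiment 2 its 4-dose arrays, at 10.30, 10.04, 9.84, 10.21 and 10.14, lay below controls of 10.50 to 10.56, and in experiment 1 they were at 8.90, 8.83 and 8.90 against 8.83, 8.75 and 8.82, nearly touching. Wholly below controls were 9 genes in each experiment (7.8% and 2.8% of all genes), of which Acadvl and Echs1 were in both, and wholly above was 1 gene in each, Vldlr and then Acads (5.78% and 4.15% of all genes).

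Between 4 doses and 1 dose 0 genes were called by limma, where 0.0451% of all genes were called lower and 0.276% higher after 4 doses. At unadjusted p under 0.05 there were 9. The smallest p was that of Plin5, 0.40 lower after 4 doses (95% interval -0.61 to -0.18, adjusted p = 0.1). The largest decrease, Slc27a1 at -0.44 (-0.73 to -0.15, adjusted p = 0.268), came from 1-dose values of 9.12, 9.06, 9.24, 9.20 and 9.06 against 4-dose values of 8.94, 8.82, 8.55, 8.54 and 8.99 in experiment 2, which did not overlap. In experiment 1 the 1-dose arrays at 7.87, 8.57 and 8.20 and the 4-dose arrays at 7.59, 7.87 and 7.49 met. Controls of Slc27a1 were 8.25, 7.55 and 8.10, then 9.12, 9.18, 9.40, 9.56 and 9.35, and Mstn-null arrays 6.55, 7.88 and 7.38, then 8.54 to 9.33 (median 8.70). The largest increase was Ucp3 at 0.16 (-0.25 to 0.58).

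Set directly against each other, 4-dose and Mstn-null muscle differed in every beta-oxidation gene. After 4 doses 23 genes were higher than in Mstn-null muscle and 1, Vldlr at -0.33 (adjusted p = 0.012), was lower, where 11.4% and 8.75% of all genes were. All 12 beta-oxidation genes were higher, by 0.41 (Echs1) to 0.86 (Acadl), as were all 3 electron transfer flavoprotein genes, by 0.24 to 0.76. Fabp3 was 1.06 ± 0.21 (SE) higher, 2.08-fold (limma, adjusted p = 0.00123). Of the 4 storage and lipolysis genes 0 were called (limma; 1, Lipe, at unadjusted p under 0.05): Pnpla2 differed by -0.17 (95% interval -0.39 to 0.05), Lipe by -0.34 (-0.66 to -0.02), Plin2 by 0.03 (-0.14 to 0.20) and Plin5 by 0.13 (-0.06 to 0.33). A single dose set against Mstn-null gave 24 higher, again all 12 beta-oxidation genes, and 1 lower, Vldlr at -0.39, beside 10.9% and 5.9% of all genes. These comparisons share the Mstn-null arrays. The count of 24 called genes for 4 doses was 16 to 24 without single arrays, lowest without 4-dose replicate 5 of experiment 2, and 16 without the 6 arrays of narrow spread. It was 3 with the interquartile range per array as a covariate and 10 with the slow fibre marker mean, so the call on all 12 beta-oxidation genes did not hold under either, and all called genes went from 4019 to 394 and 1073. Other lists differed as well: relative to Mstn-null muscle, 20 of 27 oxidative phosphorylation genes (median 0.41), 7 of 12 endothelial markers (median 0.46), 4 of 12 macrophage markers (median 0.20) and 3 of 12 slow fibre markers (median 0.66) were higher after 4 doses, and after 1 dose 23 of 27 (0.43), 6 of 12 (0.25), 1 of 12 (0.08) and 11 of 12 (1.39). Of 12 fast fibre markers 6 were higher than in Mstn-null muscle after 4 doses (median 0.18) and 3 after 1 dose (median 0.09). The part of these lists in the difference was not tested.

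**Figure D3:**
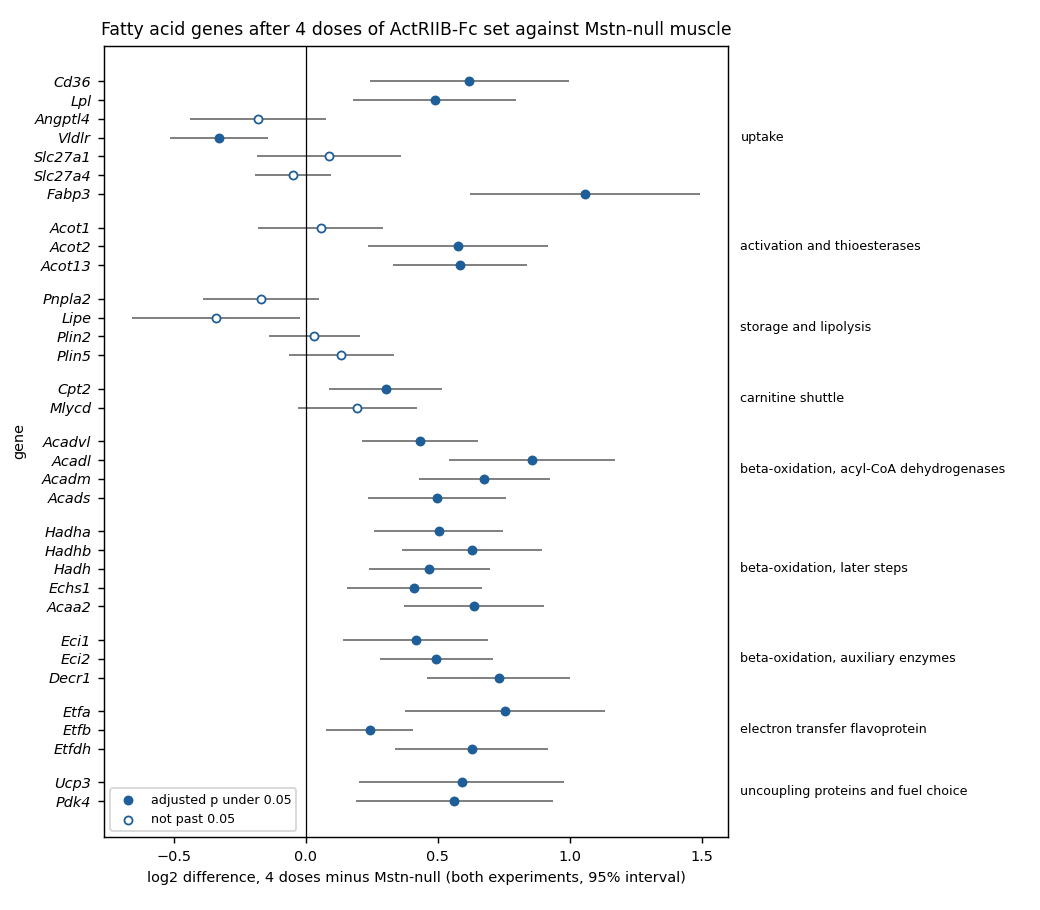
Log2 difference of 4-dose minus Mstn-null muscle (horizontal axis, 95% interval as the line) for the 33 genes by step, over both experiments. Filled points passed adjusted p under 0.05. The 12 beta-oxidation points are filled and right of 0, from 0.41 to 0.86, and the 4 storage and lipolysis points are open.

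Other measures moved with these changes. Of 12 slow fibre markers 11 fell in Mstn-null muscle (median -2.01), 0 after 1 dose (median -0.83; 6 at unadjusted p under 0.05 by limma) and 9 after 4 doses (median -1.45). By single experiment limma called 1 of the 12 in experiment 1 and 11 in experiment 2 for Mstn-null. For 1 dose and 4 doses it called 0 in either experiment (0 and 9 at unadjusted p under 0.05 in each). Of 27 oxidative phosphorylation genes 25 fell in Mstn-null muscle (median -0.47), and 0 were called after 1 dose or 4 doses (limma; 0 and 4 at unadjusted p under 0.05). Of all genes 16.4% fell in Mstn-null muscle, 0.572% after 1 dose and 1.23% after 4 doses. Of 12 fast fibre markers 3 fell and 1 rose in Mstn-null muscle (median -0.02), where 25.4% of all genes rose. After 1 dose 0 fast markers were called (limma; 0 at unadjusted p under 0.05), and after 4 doses 0 fell and 1 rose (median 0.06). The mean of the 12 beta-oxidation genes per array of experiment 2 was 10.22 to 10.38 in controls, 8.84 to 10.07 in Mstn-null mice, 10.07 to 10.36 after 1 dose and 9.97 to 10.32 after 4 doses. The slow marker mean was 9.66 to 10.28, 6.79 to 9.17, 7.82 to 10.20 and 7.72 to 9.40 in the same order. Arrays with like slow marker means were apart in some cases and alike in others, by examples picked after the values were seen. Those apart were 4-dose replicate 1 of experiment 2, at a slow mean of 7.72 and a beta-oxidation mean of 10.11, and Mstn-null replicate 1, at 7.75 and 9.55. Also apart, in experiment 1, were 1-dose replicate 3 at 6.43 and 8.51 and Mstn-null replicate 1 at 6.59 and 7.74. Alike in experiment 2 were Mstn-null replicate 5 at 9.00 and 10.07 and 1-dose replicate 2 at 8.81 and 10.07. In experiment 1 4-dose replicate 3, an array of narrow spread, was at 6.20 and 8.02. Mstn-null replicate 2 was near it in beta-oxidation, at 6.85 and 8.06, but their slow means were less alike. In experiment 1 the beta-oxidation mean was 8.34 to 8.65 in controls, 7.74 to 8.06 in Mstn-null mice, 8.50 to 8.57 after 1 dose and 8.02 to 8.48 after 4 doses.

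**Figure D4:**
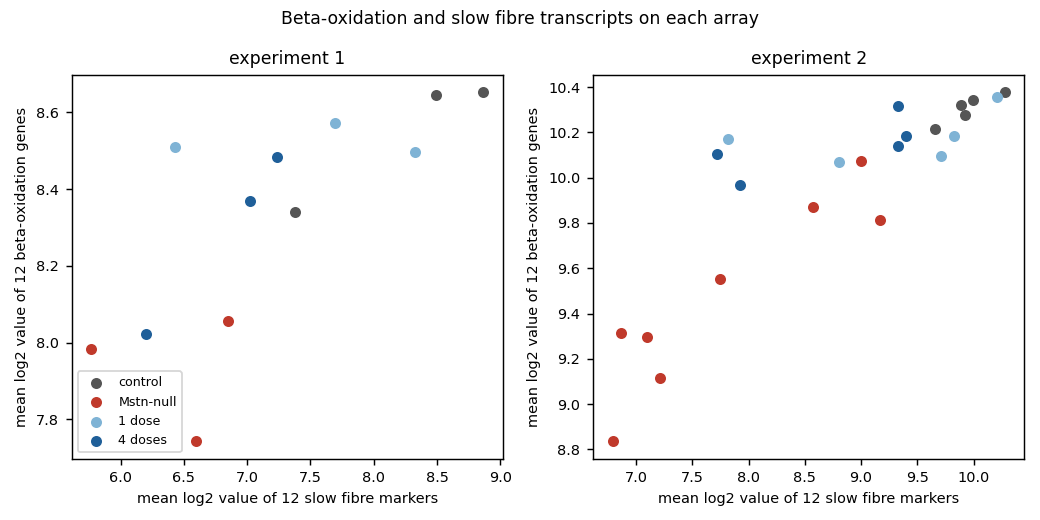
Mean log2 value of 12 beta-oxidation genes (vertical axis) against that of 12 slow fibre markers (horizontal axis), each point an array, in experiments 1 and 2. In experiment 2 the controls sit at the top right, at 10.22 to 10.38 for beta-oxidation, and Mstn-null arrays range down to 8.84. The dosed classes of experiment 2 stay at or above 9.97, and in experiment 1 the lowest 4-dose array, at 8.02, lies among the Mstn-null arrays.

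With the slow marker mean as a covariate, 1 gene (Lpl) stayed lower in Mstn-null muscle and 0 after 4 doses. With the interquartile range per array as a covariate, 12 of the 27 Mstn-null calls held (Lpl, Acot2, Acot13, Plin5, Acadvl, Acadl, Acadm, Hadhb, Echs1, Etfdh, Ucp3 and Pdk4), as did all 3 after 4 doses, and 25 Mstn-null calls held with the 6 narrow arrays left out. All genes called in Mstn-null muscle, of 19938, went from 8337 to 139 with the slow marker mean, 596 with the interquartile range and 5079 without the narrow arrays. The part of fibre type and of array spread in the changes was not tested. The members were also bright: with genes put in 10 bins of equal size by mean level, 22 of the 33 were in the brightest, in which 43.4% of all genes fell in Mstn-null muscle (median -0.19), and 21 of these 22 members fell (median -0.84).

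**Figure D5:**
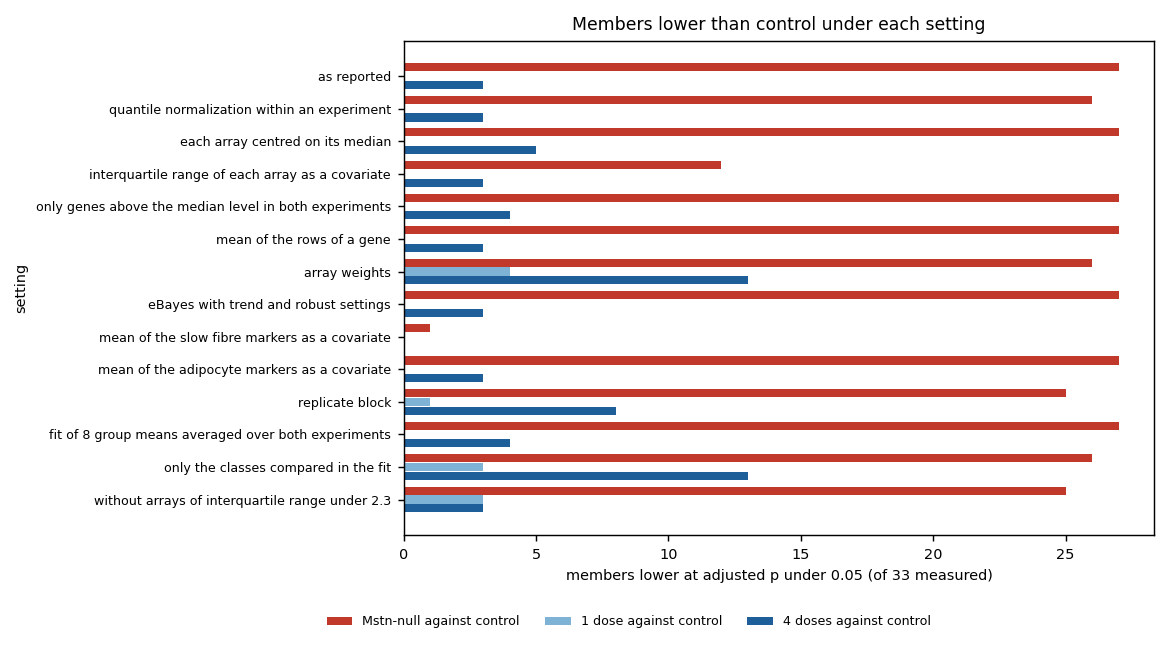
Number of the 33 genes lower than control at adjusted p under 0.05 (horizontal axis) under each processing setting (rows), for the 3 classes compared with control. The Mstn-null bar is 25 to 27 except with the interquartile range (12) or the slow marker mean (1) as a covariate, and the 4-dose bar runs from 0 to 13.

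Of 11 adipocyte markers, Fabp4 and Aqp7 fell in Mstn-null muscle, a share near the 16.4% of all genes that fell. Nrg4 alone of them rose, where 25.4% of all genes rose. After 1 dose or 4 doses 0 adipocyte markers were called (limma; 0 and 2 at unadjusted p under 0.05). The mean of the 11 per array of experiment 2 was 7.19 to 8.22 in controls, 6.58 to 7.98 in Mstn-null mice, 7.06 to 7.83 after 1 dose and 7.13 to 7.44 after 4 doses, and in experiment 1 it was 5.37 to 6.24, 5.09 to 6.09, 5.16 to 6.92 and 5.13 to 5.75. With this mean as a covariate all 27 Mstn-null calls and all 3 calls after 4 doses held. Of 12 endothelial markers 6 fell in Mstn-null muscle, with array means of 7.32 to 8.07 against 7.94 to 8.07 in controls of experiment 2, and 1 fell after 1 dose, beside 16.4% and 0.572% of all genes that fell. Of 12 macrophage markers 4 rose in Mstn-null muscle, a share near the 25.4% of all genes that rose. By experiment, 8 rose in experiment 2 (median 0.36) and 0 in experiment 1 (limma; 1 at unadjusted p under 0.05), where 9 of 12 were below 0 (median -0.17), and the difference between experiments passed for 1 of 12. After 4 doses 7 rose, beside 1.91% of all genes, with array means of 7.25 to 7.49 after 4 doses against 6.46 to 6.77 in controls of experiment 2. In experiment 1 limma called 0 of 12 after 4 doses, and means of 5.01 to 5.28 overlapped 4.62 to 5.23 in controls. After 1 dose limma called 0 over both experiments (7 at unadjusted p under 0.05), with a median of 0.34. Within experiment 2 it called 3 after 1 dose, and within experiment 1 it called 0. Lpl and Cd36 are each also made by some, not necessarily all, of these cell types, and the part of these cells in their changes was not tested.

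Beyond the 33 genes, 70 other genes of fatty acid handling were measured. In Mstn-null muscle 27 fell and 6 rose (median -0.10), where 16.4% of all genes fell and 25.4% rose. The smallest p belonged to Acss1, mitochondrial acetyl-CoA synthetase, at -0.98, the sterol carrier protein gene Scp2 at -1.18, the peroxisomal phytanoyl-CoA hydroxylase gene Phyh at -1.11 and Acad8, an acyl-CoA dehydrogenase of valine breakdown, at -0.84 (limma, adjusted p = 5.45e-07, 6.79e-06, 7.63e-06 and 1.43e-05). After 1 dose, Plin4, another droplet coat protein, fell by 0.48 (limma, adjusted p = 0.0154) and no other gene of the 70 was called, where 0.572% of all genes fell and 0.542% rose. After 4 doses 8 fell and 1 rose, where 1.23% of all genes fell and 1.91% rose. Plin4 fell by 0.66 (adjusted p = 0.000182), Acss1 by 0.70 (0.000819) and the thioesterase Acot11 by 0.37 (0.00148), and Fabp5, a fatty acid-binding protein also made by macrophages and endothelium, rose by 0.57 (limma, adjusted p = 0.00148).

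Among 15 regulators of the pathway, the nuclear receptor genes Esrrg and Ppara had the smallest p in Mstn-null muscle, at -0.75 and -0.73 (limma, adjusted p = 1.39e-06 and 3.67e-06), where 4 of the 15 fell and 3 rose, beside 16.4% and 25.4% of all genes. Prkaa2, a catalytic subunit of AMP-activated kinase, was at 0.37 (limma, adjusted p = 0.00486). Ppara was also the single regulator called after 1 dose, at -0.51 (limma, adjusted p = 0.00871), where 0.572% of all genes fell. After 4 doses 5 fell, beside 1.23% of all genes: Esrrg by 0.57, Ppara by 0.58, Klf15, a transcription factor of fasting metabolism, by 0.45, Esrrb by 0.34 and Lpin1 by 0.41 (limma, adjusted p = 0.000805, 0.00112, 0.00339, 0.00353 and 0.0206).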

How the data were processed

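RNA from 35 quadriceps samples was measured on 1 array each. Per the submitters' processing notes the deposited values were made by the authors with RMA, and limma 3.4.4 and R 2.11.1 are also named there without a role. The deposited values are log2 expression levels from 0.4 to 14.7, the base taken from their range. Whether both experiments were normalized together, and the probe design's genome build, are not given in the sources used here. Signal over background was not analysed, and precision is limited by the number of arrays.

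Of 35556 rows, 21789 had exactly 1 gene symbol in the platform annotation, 1621 several and 12146 none. Of the first, 21698 matched RefSeq (GRCm38.p6) by gene number. Rows with several or no symbols were left out. For 999 genes with several rows the row with the highest mean was used, which left 19938 genes. Changes come from limma 3.58.1 in R 4.3.3 (two-sided moderated tests, lmFit then eBayes) with class and experiment as terms over all 35 arrays. Values within an experiment and differences between experiments come from a fit of 8 group means. Benjamini-Hochberg adjusted p under 0.05 over all genes was called. Shares of all genes that fell, rose or were called are at this threshold. Counts at unadjusted p under 0.05 have no such share beside them. The fits were tested on simulated data first. Promoter windows are RefSeq's, cut to the 250 bases before the start.

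The members and gene lists were chosen with earlier results of these data known. Values by array (for the 8 Mstn-null arrays of experiment 2, their range and median) are given for Cd36, Lpl, Pdk4, Ucp3, Angptl4 and Plin2, for the gene with the smallest Mstn-null p in each step, and for the largest rise and fall in each dose comparison, and for the other lists up to 4 genes with the smallest p. Fabp4, Gpihbp1 and Lpin1 are each in 2 lists and counted in both. Settings tried were quantile normalization, median centring, a filter on dim genes, the mean of a gene's rows, array weights, robust eBayes, covariates for array spread, slow fibre and adipocyte markers, fewer arrays in the fit, replicate blocks, and leaving out each array. Leaving out the arrays with an interquartile range under 2.3 was chosen after seeing the data.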

Additional observations from a re-analysis of the deposited data

Results flagged for a closer look

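In 5 of 132 groups of values (33 genes in the 4 classes of experiment 2), a single array stood far from its group by Dixon's criterion, which chance meets in about 1 in 20 groups. For Acot13, control replicate 4 read 9.80 and its nearest neighbour 9.65. Lipe read 8.48 on 1-dose replicate 1, with the next at 8.23. The Cpt2 value of 4-dose replicate 3, one of the arrays of narrow spread, was 8.56 against 8.81. Hadh was 10.67 on 1-dose replicate 5 against 10.97, and Echs1 was 9.24 on 1-dose replicate 2 against 9.43. The 5 values were on 5 different arrays. No test of a difference between experiments passed for these genes.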

How the results depend on the processing

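In the comparisons with control over both experiments, no called gene of the pathway changed sign under any setting tried. Single genes were not followed through the settings for calls within an experiment, for calls against Mstn-null muscle or for the other gene lists. In Mstn-null muscle the 27 called genes became 12 with the interquartile range and 1 with the slow marker mean as a covariate. The count was 26 to 27 without single arrays. For 1 dose the count of 0 became 4 with array weights, 3 with only the compared classes in the fit and 3 without the narrow arrays, and was 0 to 1 without single arrays. For 4 doses the 3 became 5 with median centring, 13 with array weights, 0 with the slow marker mean and 13 with only the compared classes, and 3 to 6 without single arrays. For 4 doses against 1 dose the 0 became 2 with array weights and 1 without the narrow arrays, and 0 to 1 without single arrays, the 1 being without 1-dose replicate 2 of experiment 2. For 4 doses against Mstn-null the 24 became 3 with the interquartile range, 10 with the slow marker mean and 15 with only the compared classes, and 16 to 24 without single arrays. For 1 dose against Mstn-null the 25 became 11 with the interquartile range and 3 with the slow marker mean, and 25 to 26 without single arrays.

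By experiment, the 8 Mstn-null genes of experiment 1 became 1 with the interquartile range, 24 with array weights, 1 with the slow marker mean, 5 with the adipocyte mean and 19 without the narrow arrays, and 1 to 7 without single arrays. The 27 of experiment 2 became 15 with the interquartile range and 5 with the slow marker mean, and stayed 27 without any single array. For 1 dose the 0 of experiment 1 stayed 0 throughout, and the 0 of experiment 2 became 1 with median centring, 6 with array weights and 2 without the narrow arrays, and 0 without any single array. For 4 doses the 0 of experiment 1 became 1 with quantile normalization and 16 with array weights, and 0 without any single array, and the 4 of experiment 2 became 10 with array weights and 2 with the slow marker mean, and 2 to 5 without single arrays. The covariates differ between classes, so these fits also remove differences between classes. The cause of the other shifts was not tested.

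The labels do not say whether replicate numbers pair the mice. Deviations of same-numbered arrays of different classes correlated between -0.53 and 0.42 in experiment 1 and -0.60 and 0.38 in experiment 2. Differently numbered arrays gave -0.42 to 0.53 and -0.43 to 0.48. Such ranges cannot decide whether mice were paired. With a replicate block the counts were 25 for Mstn-null, 1 for 1 dose, 8 for 4 doses, 1 between the dosings, and 10 where 4 doses were set against Mstn-null. By experiment the block gave 13 for Mstn-null in experiment 1, 2 for 1 dose in experiment 2, 2 for 4 doses in experiment 1 and 7 in experiment 2.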
